A study of Mus musculus with 8 samples.

Results

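The genes described here are 10 members of the epidermal growth factor (EGF) family in mouse kidney: the ligand genes Egf, Hbegf, Tgfa, Areg, Ereg and Btc, and the receptor genes Egfr, Erbb2, Erbb3 and Erbb4. They were chosen by name, for their part in signalling during tubule repair, and with earlier results of these data known. All 10 were found among the 46517 genes listed in each count file. Their transcripts were measured by mRNA sequencing of whole kidneys from 4 cKO mice (KO16, KO18, KO19 and KO20) and 4 Control mice (C10, C11, C13 and C14), with 1 library per mouse. The cKO mice carried Xpr1lox/lox with Pax8-rtTA and LC-1, so that doxycycline switched on Cre recombinase in kidney tubule cells and deleted the floxed exon 2 of Xpr1, a phosphate exporter gene. The Control mice were littermates with Xpr1lox/lox alone. Both groups drank doxycycline at 2 mg/ml for 2 weeks from 8 weeks of age, so the drug and the floxed alleles were shared, whereas Cre and rtTA were present in cKO mice alone and cannot be told apart from the loss of Xpr1. The labels give the mice no sex, batch or pairing, and p-values set the difference between the groups against the spread between these libraries.

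Ligands of this family are made as membrane proteins and released by proteases of the ADAM family, with help from rhomboid-related proteins. They bind ErbB receptors on the same or nearby cells, the receptors pair up and phosphorylate each other, and adaptor proteins pass the signal to the RAS, RAF, MEK and ERK kinases. In healthy kidney Egf is made by the thick ascending limb and the distal convoluted tubule and is excreted in urine, where its level is followed as a sign of tubule health, while amphiregulin, HB-EGF and transforming growth factor alpha are known from injured epithelium. Egfr is found along much of the nephron. Erbb2 has no ligand of its own and acts as a partner, Erbb3 has little kinase activity and signals through its partners, and Erbb4 binds neuregulins as well as several EGF-type ligands.

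Libraries held 20366113 to 26155030 reads on genes, and 15382 genes had enough reads to be tested. Xpr1 stood at 5.74 to 26.5 CPM (reads on the gene scaled to the library's total by TMM factors) in cKO libraries, against 80.2 to 126 CPM in Control libraries. KO16 and KO20, which held the least Xpr1 (5.74 and 12.0 CPM), leaned to short transcripts, and C11 leaned to long ones. The shortest sixth of genes lay 0.96, 0.49 and -0.36 from the Control mean on the log2 scale in KO16, KO20 and C11. Smaller leans were seen in KO18 and KO19 to long transcripts (-0.23 and -0.14) and in C10 to short ones (0.24). For the longest sixth the values were 0.34 in KO18, 0.22 in KO19, 0.39 in C11 and -0.27 in C10. Leaving out KO16, KO20 and C11 thus does not remove the lean between the groups. No list of kidney cell type markers had a gene at 0 in all libraries. Proximal tubule markers fell in cKO kidneys in 10 of 12 genes, against 6.61% of all genes tested. Without KO16 and KO20 it was 8 of 12, against 8.4%. Markers of injured tubule rose in 7 of 7 tested and myeloid markers in 8 of 10, against 7.5% of all genes. Of thick ascending limb markers 0 of 8 tested passed, and of distal convoluted tubule markers 0 of 9, against 14.1% of all genes. Of 12 collecting duct markers 1 rose and 1 fell. Rises were called in 2 of 9 stromal, 2 of 9 urothelium and 1 of 8 lymphocyte markers. Of podocyte markers 0 of 6 passed, and of endothelial markers 0 of 8. The lists were chosen with earlier results of these data known. In whole kidney, fewer cells of a type and less RNA per cell cannot be told apart.

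Of the 10 genes 9 were tested, and Ereg had too few reads. A pair of ligand genes, Areg and Tgfa, rose in cKO kidneys, 0 members fell, and 7 did not pass. Calls here are adjusted p-values under 0.05 from edgeR's quasi-likelihood test with Benjamini-Hochberg adjustment over all 15382 genes. The called share was 22.2% of the 9 members, against 14.1% of all genes tested (7.5% higher and 6.61% lower). Another member, Egf, had an unadjusted p under 0.05. The groups did not overlap for Areg alone among the 9 tested members, and for 22.8% of all genes tested; among the untested, Ereg did not overlap either.

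**Figure D1:**
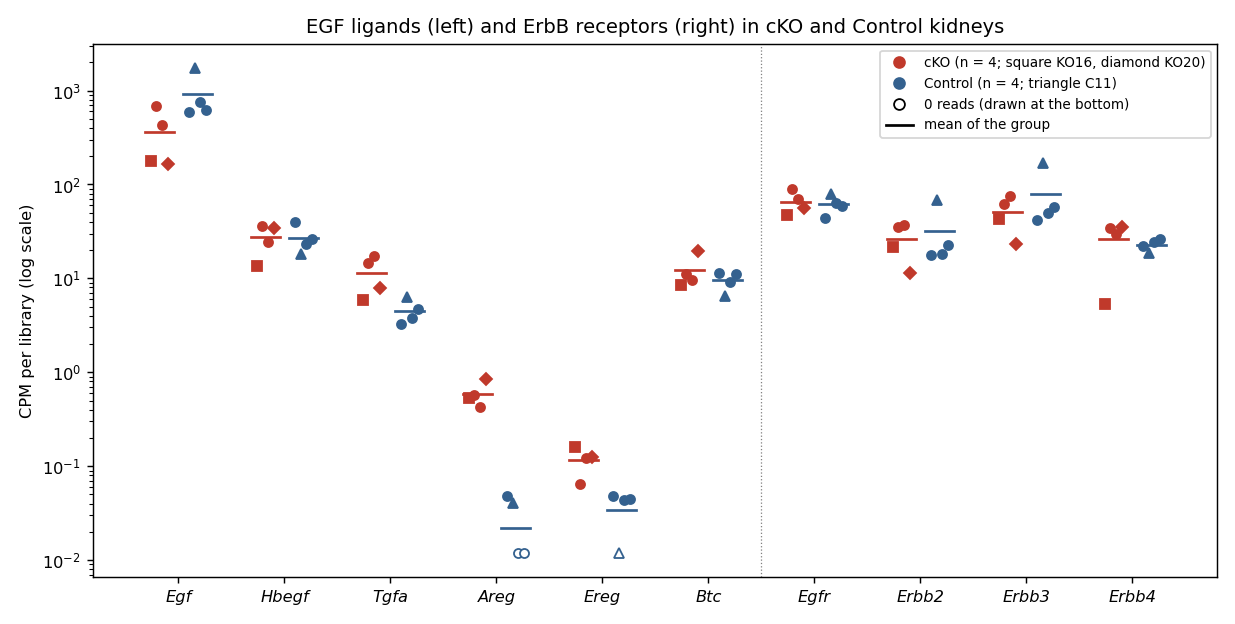
CPM of each gene in each library, on a log scale, with cKO libraries in red to the left of Control libraries in blue and a line at each group's mean (n = 4 each); open symbols at the bottom are libraries with 0 reads. Areg and Ereg are the genes whose groups separate, Tgfa overlaps through KO16 and C11, and C11 stands above the other Control libraries for Egf, Erbb2 and Erbb3.

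Egf, the founding ligand of the family, was the most abundant member by mean level in both groups. The gene (ENSMUSG00000028017) spans bases 129677565 to 129755316 of chromosome 3 in GRCm38, transcribed from the minus strand. It stood at 178 (KO16), 677 (KO18), 429 (KO19) and 164 (KO20) CPM in cKO kidneys, against 595 (C10), 1729 (C11), 747 (C13) and 614 (C14) CPM in Control kidneys. KO18 lay inside the Control range and the other cKO libraries below it, and C11 stood far above every other library. The means were 362 ± 243 CPM in cKO and 921 ± 542 CPM in Control kidneys (SD, n = 4 each), and the log2 fold change of -1.35 (SE 0.54) did not pass (adjusted p = 0.143). With the trend of each library on transcript length removed, a setting that called 9.72% of all genes higher and 9.55% lower, Egf was called lower, at -1.24 (adjusted p = 0.0257), as was 1 of the 9 distal convoluted tubule markers, Tmem52b, at -0.59 (0.0491). Leaving out KO16 and KO20 gave -0.74 for Egf (adjusted p = 0.358), leaving out C11 gave -0.85 (0.325), and leaving out all 3 gave -0.28 (0.218).

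With all libraries and no length correction, no tested marker of the segments that make Egf passed in either direction. Umod, the uromodulin gene of the thick ascending limb, ranged from 2836 to 3769 CPM in cKO libraries and from 2377 to 2890 CPM in Control libraries (log2 fold change 0.31, adjusted p = 0.406). Cldn16, a claudin gene of the same segment, averaged 14.3 ± 4.75 CPM in cKO and 10.8 ± 1.69 CPM in Control kidneys (0.40, adjusted p = 0.383). Tmem52b, a distal convoluted tubule marker, had 163.9, 203.3, 186.1 and 161.3 CPM in KO16, KO18, KO19 and KO20, against 271.7, 231.9, 273.7 and 260.6 CPM in C10, C11, C13 and C14. It was lower in every cKO library than in any Control library (-0.54, SE 0.18, adjusted p = 0.0872). Klhl3, a gene of the same segment that regulates salt transport, averaged 7.95 ± 4.96 CPM in cKO and 14.9 ± 8.06 CPM in Control kidneys (-0.90, adjusted p = 0.303). The summed level of the 9 thick ascending limb markers ran from 3971 to 5575 CPM in cKO and from 3942 to 4539 CPM in Control libraries, and that of the 9 distal convoluted tubule markers from 919.8 to 1156 CPM in cKO and from 1050 to 1583 CPM in Control libraries. The difference between log2 Egf and the mean log2 level of 8 thick ascending limb markers was 0.48, 1.98, 1.44 and -0.04 in KO16, KO18, KO19 and KO20, against 1.93, 3.55, 2.27 and 2.08 in C10, C11, C13 and C14. KO18 overlapped C10, and KO16 and KO20 were the lowest.

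Its means were 0.97 ± 0.91 in cKO and 2.46 ± 0.74 in Control kidneys, a difference of -1.49 on the log2 scale (exact two-sided permutation p = 0.0571, 70 arrangements, smallest possible p = 0.0286). Relative to 8 distal convoluted tubule markers the means were 2.61 ± 0.73 in cKO and 3.71 ± 0.55 in Control kidneys, a difference of -1.11 (exact permutation p = 0.0857). Adjusted over both, each p was 0.0857. With the median of the markers in place of their mean the difference was -1.32 for the thick ascending limb, where KO18 overlapped C10 and C14 (exact permutation p = 0.0857). For the distal convoluted tubule it was -1.43, and the groups did not overlap (exact permutation p = 0.0286).

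**Figure D2:**
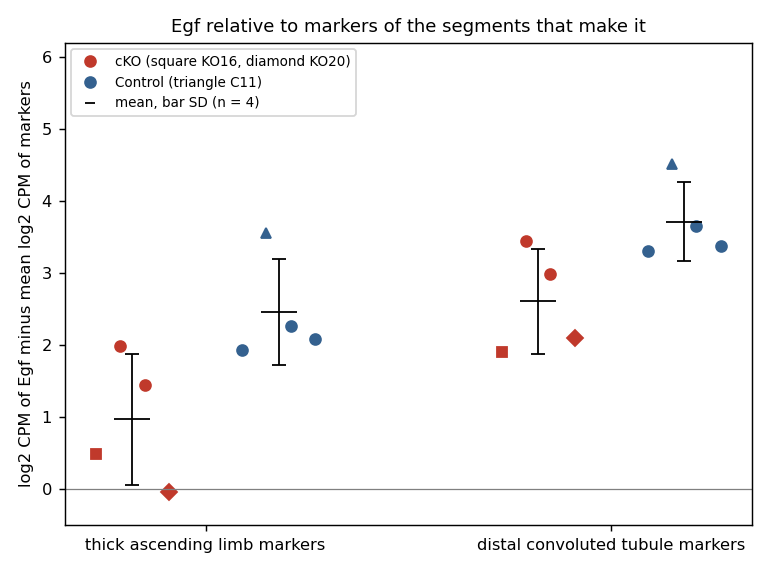
Log2 CPM of Egf minus the mean log2 CPM of segment markers in each library (cKO red, left; Control blue, right; the cross bar is the mean and the whiskers the SD, n = 4 each). KO16 and KO20 are the lowest cKO libraries and C11 is the highest Control library against both marker sets; the groups differ by -1.49 and -1.11 on average and overlap through KO18.

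Tgfa, which encodes transforming growth factor alpha, a ligand of EGFR, rose in cKO kidneys. The gene (ENSMUSG00000029999) spans bases 86195223 to 86275719 of chromosome 6, plus strand. Its level was 5.90, 14.7, 17.3 and 7.97 CPM in KO16, KO18, KO19 and KO20, and 3.28, 6.34, 3.78 and 4.70 CPM in C10, C11, C13 and C14. KO18 and KO19 were the highest, and KO16 lay just below C11. The means were 11.5 ± 5.42 CPM in cKO and 4.52 ± 1.34 CPM in Control kidneys (SD, n = 4 each), for which edgeR gave 1.34 on the log2 scale (SE 0.38, adjusted p = 0.0454). This call was close to the threshold and was lost without C10 (adjusted p = 0.123), C13 (0.138), C14 (0.115), KO18 (0.0900) or KO19 (0.110), by limma-voom (0.0632, where 6.72% of all genes were called higher and 6.9% lower) and with no filter on low counts (0.0554), while the log2 fold change stayed between 1.07 and 1.99 in all alternatives. Without KO16 and KO20, the libraries that lean most to short transcripts, it was 1.81 (adjusted p = 0.00745). That comparison called 8.17% of all genes higher and 8.4% lower. The cKO libraries left in it, KO18 and KO19, lean to long transcripts, and the share of that lean was not tested. With all libraries and the length trend removed, the log2 fold change was 1.42 (adjusted p = 0.00345), where 9.72% of all genes were called higher and 9.55% lower. It was 1.32 by DESeq2 (adjusted p = 0.00771), which called 9.14% of all genes higher and 7.79% lower, and 1.73 with library totals alone (0.0327), which called 15.4% higher and 3.56% lower.

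Areg, which encodes amphiregulin, an EGFR ligand released from stressed epithelium and from immune cells, was almost silent in Control kidneys and rose in cKO kidneys, all 4 of which lay above every Control kidney. The gene (ENSMUSG00000029378) spans bases 91139599 to 91148432 of chromosome 5, plus strand. It had 10, 18, 14 and 20 reads in KO16, KO18, KO19 and KO20, against 1, 1, 0 and 0 reads in C10, C11, C13 and C14. These counts correspond to 0.424 to 0.844 CPM in cKO and 0 to 0.0482 CPM in Control libraries, and the groups did not overlap. The scaled read ratio of cKO over Control was 26.5 (95% exact binomial interval 7.03 to 224, counting error alone), and the fitted log2 fold change was 4.47 (SE 0.63, adjusted p = 0.0023). The call held in all 17 alternatives that kept the gene, with adjusted p up to 0.0119; a minimum mean of 1 CPM removed it. The 10 myeloid markers include Ptprc, Adgre1, Cd68 and Lyz2, and 0 of them were at 0 in all libraries. Their summed level was 1040, 295.1, 328.7 and 759.7 CPM in KO16, KO18, KO19 and KO20, against 134 to 151 CPM in Control libraries. A few genes set most of this sum: Lyz2, C1qb and C1qa held 591.7, 190.7 and 113.7 CPM of it in KO16. In KO20 they held 391.7, 123.7 and 100.5 CPM. Of the 10 markers 8 were called higher. Ptprc overlapped between the groups and did not pass (log2 fold change 0.47, adjusted p = 0.341), and KO16 was its lowest library (11.3 CPM). Csf1r also overlapped and did not pass (0.41, adjusted p = 0.445). KO16 and KO20 lean to short transcripts, and the share of that lean in the sum was not tested. The summed level of 9 urothelium markers was 55.6 to 166 CPM in cKO and 18.9 to 40.0 CPM in Control libraries. Calls of higher were made for 2 of 9 (Upk3b and Krt20), against 7.5% of all genes. Without KO16 and KO20 the count was 0 of 9, against 8.17% of all genes. Krt20 is also among the markers of injured tubule. It held 71.4, 18.3, 20.5 and 21.5 CPM of the urothelium sum in KO16, KO18, KO19 and KO20. In Control libraries it held 0.0482 to 4.97 CPM. The part of these cell types in the results on Areg and Tgfa was not tested.

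Ereg, the gene of epiregulin, is a neighbour of Areg on chromosome 5, from 91074622 to 91093646 on the plus strand. It had 3, 2, 4 and 3 reads in KO16, KO18, KO19 and KO20 and 1, 0, 1 and 1 in C10, C11, C13 and C14, so every cKO library lay above every Control library by a few reads at most. The scaled read ratio was 3.42, with a counting interval of 0.922 to 18.9, and no difference could be shown at this depth. An antisense gene overlapping its exons, Gm19610, had 3 reads over the cKO and 1 over the Control libraries.

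The sequence just before the start of the pair of genes that rose is shown to let their promoters be compared. Each line is the 250 bases before the RefSeq start site in GRCm38.p6, on the plus strand, chr5:91139349-91139598 for Areg and chr6:86194972-86195221 for Tgfa, with capitals marking matches, on either strand, to the motifs searched. The core promoter motif was TATAAA. The cAMP response element was searched as TGACGTCA. The AP-1 motif was searched as TGANTCA, with any base at N. The GC box was searched as GGGCGG, and its matches on the minus strand show its reverse complement, CCGCCC. No matches overlapped in these windows.
Areg: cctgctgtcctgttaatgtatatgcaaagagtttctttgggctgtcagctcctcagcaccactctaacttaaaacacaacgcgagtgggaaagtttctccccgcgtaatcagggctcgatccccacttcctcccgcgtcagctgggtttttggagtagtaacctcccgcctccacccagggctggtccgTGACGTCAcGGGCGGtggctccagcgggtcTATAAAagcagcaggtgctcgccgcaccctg
Tgfa: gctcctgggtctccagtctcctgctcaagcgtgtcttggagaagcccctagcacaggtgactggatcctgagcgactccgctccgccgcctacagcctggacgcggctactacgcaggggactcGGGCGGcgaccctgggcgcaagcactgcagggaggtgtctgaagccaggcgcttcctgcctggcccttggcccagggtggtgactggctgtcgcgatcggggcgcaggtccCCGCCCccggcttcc
The Areg window held a cAMP response element whose first base lay 61 bases before the start site, a GC box at 52 and a core promoter motif at 31. The Tgfa window held GC boxes at 126 and 15 bases before the start, and none of the other motifs. Of 32851 windows of this length in the RefSeq table, 1.55% held the cAMP response element, 12.4% the core promoter motif, 6.75% the AP-1 motif and 32.7% the GC box. RefSeq windows were matched for 7 of the 10 members. No match of the AP-1 letters was found in any of them. These matches describe letters in a window and say nothing of which factor binds there.

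Hbegf and Btc did not pass. Hbegf, which encodes heparin-binding EGF-like growth factor and lies on the minus strand of chromosome 18 between bases 36504927 and 36515805, had 13.7, 36.1, 24.5 and 34.8 CPM in KO16, KO18, KO19 and KO20, against 40.2, 18.1, 23.1 and 26.2 CPM in C10, C11, C13 and C14. Both groups covered much the same range, with means of 27.3 ± 10.4 CPM in cKO kidneys and 26.9 ± 9.45 CPM in Control kidneys. Its log2 fold change was 0.02 (SE 0.35, adjusted p = 0.98), and the sign turned in several alternatives, down to -0.15. Btc, the betacellulin gene, whose product binds both EGFR and ErbB4, spans bases 91357261 to 91402994 of chromosome 5, minus strand. It had 8.55, 11.04, 9.60 and 19.7 CPM in KO16, KO18, KO19 and KO20, against 11.4, 6.42, 9.17 and 11.1 CPM in C10, C11, C13 and C14. KO20 was the highest and the rest overlapped. Its log2 fold change was 0.36 (SE 0.32, adjusted p = 0.519), and -0.07 without KO16, KO20 and C11.

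Levels of different genes were compared per kilobase of annotated exon. In cKO kidneys Egf led with 32.1 ± 21.6 CPM per kilobase, before Erbb3 (8.50 ± 3.79), Egfr (5.76 ± 1.60), Hbegf (5.64 ± 2.16), Erbb2 (5.07 ± 2.35), Btc (2.70 ± 1.13), Erbb4 (2.12 ± 1.14) and Tgfa (1.77 ± 0.834). In Control kidneys the order was Egf (81.7 ± 48.1 CPM per kilobase), Erbb3 (13.1 ± 9.87), Erbb2 (6.07 ± 4.65), Hbegf (5.56 ± 1.96), Egfr (5.41 ± 1.28), Btc (2.10 ± 0.505), Erbb4 (1.84 ± 0.254) and Tgfa (0.697 ± 0.207). Areg and Ereg came last in both groups, Areg with 0.489 ± 0.147 CPM per kilobase in cKO and 0.0182 ± 0.0212 in Control kidneys. From Erbb3 down to Erbb2 in cKO kidneys, and from Erbb3 down to Egfr in Control kidneys, neighbours differed by less than the larger of their SDs. The same held for Btc and Erbb4 in both groups, and for Erbb4 and Tgfa in cKO kidneys. Per kilobase of exon Egf had the highest level in every library. Per kilobase of coding sequence it came second in KO20, with 44.8 CPM per kilobase against 55.8 for Hbegf.

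Egf made up 72.1%, 82.6%, 78.8% and 51.8% of the summed per-kilobase level of the 6 ligands in KO16, KO18, KO19 and KO20, against 82.3%, 96.1%, 90.0% and 86.4% in C10, C11, C13 and C14. KO18 just exceeded C10, so the groups overlapped. The share of Tgfa was 4.15%, 3.11%, 5.53% and 4.38% in KO16, KO18, KO19 and KO20, against 0.787%, 0.612%, 0.791% and 1.15% in C10, C11, C13 and C14. Areg made up 0.652% to 2.48% in cKO and 0% to 0.0618% in Control libraries. The shares of Tgfa and Areg were thus higher in every cKO library than in any Control library, and each share depends on the level of Egf, the largest part of the sum. Per kilobase of coding sequence, a choice made after seeing the data, the Egf share was 48.6%, 62.7%, 55.4% and 28.8% in KO16, KO18, KO19 and KO20, against 63.7%, 89.7%, 76.7% and 69.8% in C10, C11, C13 and C14. On that scale the groups did not overlap, and Tgfa averaged 12.7% in cKO and 3.07% in Control kidneys. Areg made up 0.262% to 0.728% in cKO and 0% to 0.0253% in Control libraries. Without Egf, and per kilobase of exon, the summed level of the other ligands was 6.11 to 13.5 CPM per kilobase in cKO and 6.18 to 11.4 in Control libraries.

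**Figure D3:**
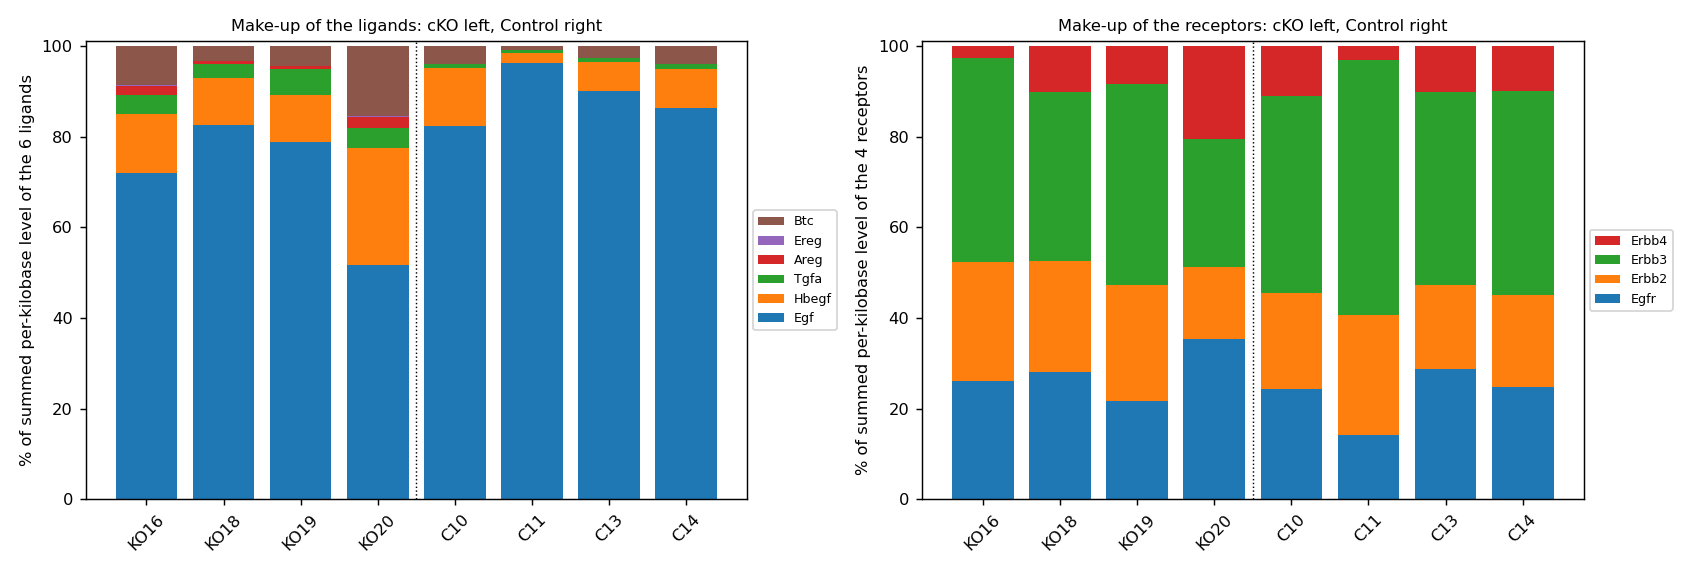
Share of each gene in the summed level per kilobase of exon of the 6 ligands (left panel) and of the 4 receptors (right panel), with a bar per library and cKO left of Control in each panel. Egf fills 51.8% to 82.6% of the ligand level in cKO and 82.3% to 96.1% in Control libraries, and Erbb3 is the largest receptor part in every library but KO20, where Egfr leads. Per kilobase of coding sequence, not drawn here, Egfr is instead the largest receptor part in every library but C11, where Erbb3 leads.

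None of the 4 receptor genes passed, and 0 had an unadjusted p under 0.05 in edgeR. Egfr, the receptor of all 6 ligands, spans bases 16752203 to 16918158 of chromosome 11, plus strand. It had 47.0, 88.5, 69.8 and 55.6 CPM in KO16, KO18, KO19 and KO20, against 44.0, 79.4, 62.8 and 59.1 CPM in C10, C11, C13 and C14. The groups covered the same range, and the log2 fold change was 0.09 (SE 0.26, adjusted p = 0.87).

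Erbb2, the partner receptor without a ligand of its own, spans bases 98412470 to 98437716 of chromosome 11, plus strand. It had 21.6, 35.3, 37.5 and 11.4 CPM in KO16, KO18, KO19 and KO20, against 17.7, 67.8, 18.4 and 22.6 CPM in C10, C11, C13 and C14. C11 was the highest and KO20 the lowest. Erbb3, which depends on its partners for kinase activity and spans bases 128567523 to 128589652 of chromosome 10 (minus strand), had 42.9, 62.7, 75.5 and 23.5 CPM in the same cKO libraries, against 41.7, 167, 49.2 and 57.3 CPM in the same Control libraries, with the same libraries at the extremes. Log2 fold changes were -0.26 (SE 0.52, adjusted p = 0.808) for Erbb2 and -0.62 (SE 0.51, adjusted p = 0.484) for Erbb3. Both signs turned without C11, at 0.43 for Erbb2 (adjusted p = 0.553) and 0.05 for Erbb3 (adjusted p = 0.96). The sign of Erbb2 also turned without KO20 (0.05), without KO16 and KO20 (0.20) and with library totals alone (0.08).

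Erbb4, a receptor of neuregulins and of betacellulin, spans bases 68032186 to 69108059 of chromosome 1, minus strand. It had 5.37, 34.6, 29.7 and 35.3 CPM in KO16, KO18, KO19 and KO20, against 22.0, 18.8, 24.4 and 26.0 CPM in C10, C11, C13 and C14. KO16 was far below every other library, and the remaining cKO libraries were above every Control library. Its log2 fold change was 0.21 (SE 0.48, adjusted p = 0.834), and 0.54 without KO16 (adjusted p = 0.0716). Without KO16, KO20 and C11 together all 4 receptors were called higher, Egfr at 0.48 (adjusted p = 0.0288), Erbb2 at 0.86 (0.000408), Erbb3 at 0.45 (0.0254) and Erbb4 at 0.37 (0.025). That comparison, of 2 cKO with 3 Control libraries, also called 57.8% of all genes tested, 29.5% higher and 28.2% lower. Its cKO libraries lean to long transcripts and C10 leans to short ones, and the share of this lean was not tested. With all libraries and the length trend removed, 0 of the 4 receptors were called, against 9.72% of all genes called higher and 9.55% lower.

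**Figure D4:**
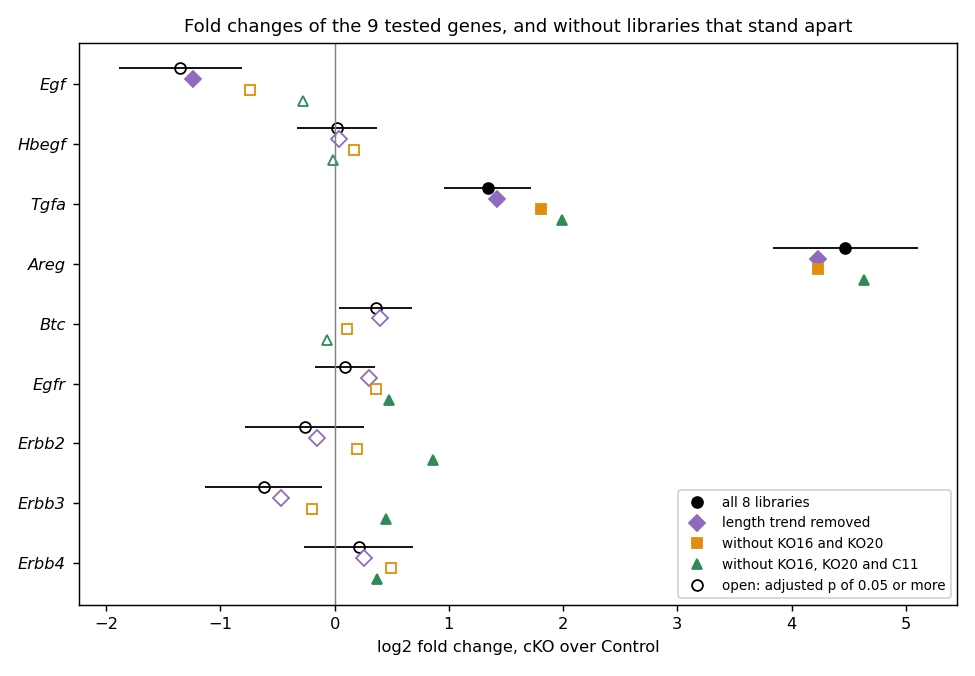
Log2 fold change of cKO over Control for the 9 tested genes with all libraries (circles, whiskers are the SE), with the length trend removed (diamonds), without KO16 and KO20 (squares) and without KO16, KO20 and C11 (triangles); filled symbols have an adjusted p under 0.05. Tgfa and Areg stay to the right throughout, Egf stays to the left and lies nearer to 0 as these libraries are left out, and Erbb2 and Erbb3 change side.

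Other genes of the pathway were taken from lists of named genes, also chosen with earlier results of these data known. They are read against the 14.1% called among all genes, whose median log2 fold change was 0.01. Of the 5 other ErbB ligand genes 2 were tested, with 1 higher and 0 lower. Nrg1, a neuregulin that binds ErbB3 and ErbB4, rose to 9.62 ± 2.14 CPM in cKO kidneys, against 4.93 ± 0.847 CPM in Control kidneys, a difference of 0.97 on the log2 scale (SE 0.24, adjusted p = 0.0271). Its libraries ran from 7.44 to 11.9 CPM in cKO and from 4.22 to 6.08 CPM in Control kidneys. This call was lost without C11, C13, C14, KO18 or KO19 (adjusted p up to 0.104) and with no filter (0.059). Nrg4, an ErbB4 ligand, had 2.17 ± 1.09 CPM in cKO and 4.03 ± 0.261 CPM in Control kidneys (-0.90, adjusted p = 0.165).

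Among 11 genes of ligand release 2 rose, 1 fell and 8 did not pass, a called share of 27.3%, with a median log2 fold change of -0.14. Timp3, the inhibitor of ADAM17 and other metalloproteases, fell to 526, 909, 745 and 769 CPM in KO16, KO18, KO19 and KO20, against 2102, 2507, 2318 and 2145 CPM in C10, C11, C13 and C14. Every cKO library lay far below every Control library (log2 fold change -1.62, SE 0.24, adjusted p = 0.00254). Adam8, a metalloprotease of leukocytes and activated epithelium, rose to 2.36 ± 0.464 CPM in cKO, against 0.661 ± 0.185 CPM in Control kidneys (1.83, SE 0.30, adjusted p = 0.00449). Rhbdl2, a rhomboid protease, rose to 3.51 ± 0.626 CPM in cKO, against 1.48 ± 0.0864 CPM in Control kidneys (1.25, SE 0.23, adjusted p = 0.00751). The calls of these 3 genes held in all 18 alternatives. The main sheddase genes did not pass: for Adam17 the value was 0.08 (adjusted p = 0.866) and for Adam10 -0.27 (adjusted p = 0.635).

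Of 16 genes for adaptors and the ERK cascade 1 rose, 0 fell and 15 did not pass (6.25% called, median log2 fold change -0.11). Mapk3, the gene of the kinase ERK1, rose to 199, 105, 104 and 154 CPM in KO16, KO18, KO19 and KO20, against 71.8, 67.1, 65.5 and 68.4 CPM in C10, C11, C13 and C14. The groups did not overlap, and KO16 and KO20 were the highest (log2 fold change 1.04, SE 0.25, adjusted p = 0.0226). Leaving out C10, C13, C14 or KO20 ended this call (adjusted p up to 0.0861). The rise was smaller, though still called, without KO16 and KO20 (0.61), without these and C11 (0.57) and with the length trend removed (0.84).

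Receptor-level inhibitors counted 0 higher, 1 lower and 10 not past the test among 11 (9.09% called, median -0.11). The gene that fell was Errfi1, whose product MIG6 binds and inhibits the EGFR kinase. Errfi1 stood at 71.7, 167, 105 and 142 CPM in KO16, KO18, KO19 and KO20, against 739, 490, 559 and 643 CPM in C10, C11, C13 and C14. The highest cKO library held far less than the lowest Control library. The means were 121 ± 41.9 CPM in cKO and 608 ± 108 CPM in Control kidneys (SD, n = 4 each). In edgeR the difference was -2.32 on the log2 scale (SE 0.30, adjusted p = 0.00167), and the call held in all 18 alternatives with values of -2.52 to -1.96.

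Of 17 transcripts known to follow ERK activity 2 rose, 1 fell and 14 did not pass (17.6% called, median -0.10), a share near that of all genes. Without KO16 and KO20, 3 were higher and 0 lower, against 8.17% and 8.4% of all genes. Etv5, an ETS factor, fell to 4.22 ± 0.924 CPM in cKO, against 13.5 ± 8.08 CPM in Control kidneys, where C11 alone had 25.5 CPM (log2 fold change -1.67, SE 0.39, adjusted p = 0.0213). Dusp5, a nuclear ERK phosphatase gene, rose to 3.54 ± 1.37 CPM in cKO, against 1.59 ± 0.265 CPM in Control kidneys (1.15, SE 0.32, adjusted p = 0.0401). Fosl1, which encodes the AP-1 member FRA1, had 11, 96, 34 and 19 reads in KO16, KO18, KO19 and KO20, against 0, 10, 0 and 0 reads in C10, C11, C13 and C14. It rose in cKO kidneys (adjusted p = 0.0471), and C11 was the one Control library with reads. Calls of Dusp5 and Fosl1 were lost in 9 of 18 and 7 of 17 alternatives, with adjusted p up to 0.13 and 0.127, among them those without C10, C13, C14, KO18 or KO20 for both, without C11 for Dusp5 and without KO19 for Fosl1. That of Etv5 was lost without KO20 (0.071), without KO16 and KO20 (0.103) and with library totals alone (0.0696).

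**Figure D5:**
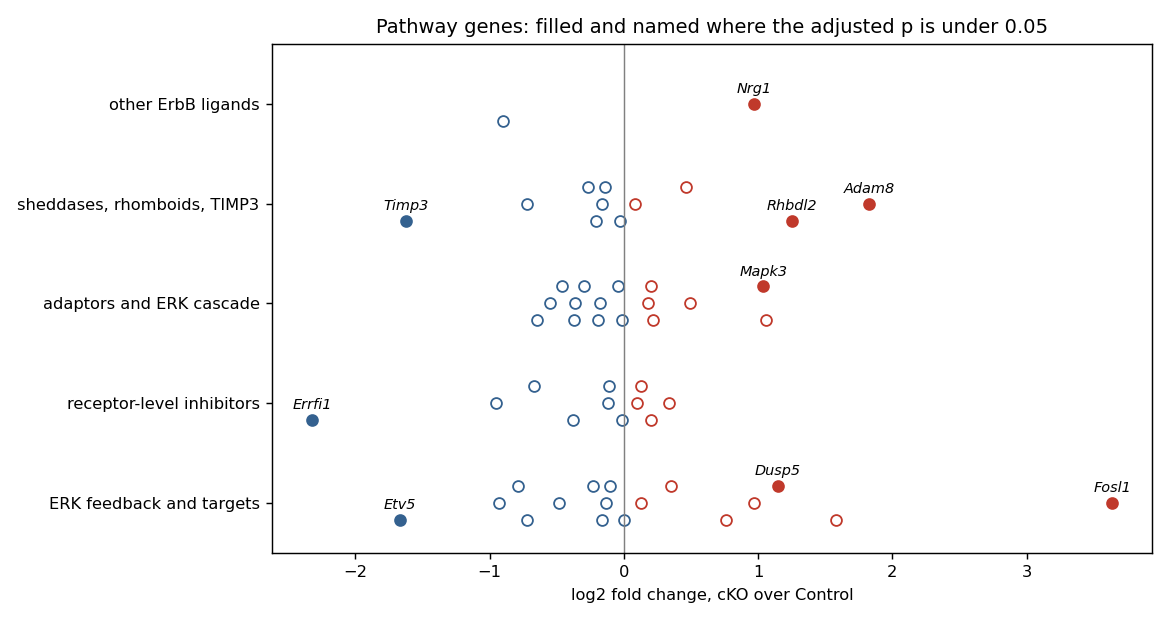
Log2 fold change (cKO over Control) of every tested gene in 5 pathway lists, a row per list; filled and named points have an adjusted p under 0.05, red is higher and blue is lower in cKO. Errfi1 at -2.32 and Timp3 at -1.62 lie apart on the lower side, and Fosl1 and Adam8 on the higher side, while the genes that did not pass lie on both sides of 0.

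The genes with the pattern most like that of each called member over the 8 libraries were found by the root-mean-square distance between log2 CPM profiles centred on the Control mean. Such genes share the direction of the member by the way they were picked, so their rise in cKO is not a separate result. With 0 or 1 read in each Control library, the log2 CPM profile of Areg is set largely by the prior count of 2, so genes near it match a compressed profile and not its fitted log2 fold change of 4.47. For Areg they were Plaur (distance 0.23), Serpina3n (0.24) and Anxa3 (0.25), each called higher in cKO kidneys, at 2.86, 2.68 and 2.74 on the log2 scale. Plaur had 35.1 ± 11.7 CPM in cKO and 4.83 ± 0.613 CPM in Control kidneys. Serpina3n had 2.62 ± 0.668 CPM in cKO and 0.402 ± 0.172 CPM in Control kidneys, and Anxa3 had 98.1 ± 23.7 CPM in cKO and 14.7 ± 1.92 CPM in Control kidneys. For Tgfa they were Tbc1d9 (0.18), Mss51 (0.19) and Igf2bp1 (0.22), of which Igf2bp1 alone was called higher (1.43 on the log2 scale, adjusted p = 0.0147).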

How the data were processed

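RNA from 8 whole kidneys was made into libraries with a stranded mRNA kit from 500 ng of total RNA, per the labels' protocols. The deposited files hold raw read counts per Ensembl gene; cutadapt 1.3, STAR 2.4.0g, HTSeq 0.6.1 and build GRCm38 are named in the submitters' processing notes, whereas for the annotation release and strand setting no source used here gives a value. Lines naming no gene (39.7% to 56.2% of each file) were left out. Symbols, positions and exon lengths came from GENCODE vM21, also GRCm38, which matched 46005 of 46517 identifiers. Antisense genes overlap exons of Egf, Ereg and Tgfa; the main one of Egf, 6330410L21Rik, had 235 reads over the cKO and 261 over the Control libraries, and Egf had 42542 and 86501. No replicate pair was near-identical (chi-square per degree of freedom at least 7.48).

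cKO was compared with Control by the quasi-likelihood test of edgeR 4.0.16 in R 4.3.3, without covariates, after TMM scaling and a filterByExpr filter set to a minimum count of 10 and a total of 15. SEs were derived from the F statistic. CPM are TMM-scaled; log2 CPM used a prior count of 2. Permutation tests used scipy 1.17.1. Alternatives were RLE, upper-quartile and library-total scaling, DESeq2 1.42.0, limma-voom (limma 3.58.1), other filters, removal of the length trend, leaving out libraries, and coding length. Members and lists were chosen with earlier results of these data known. Pathway genes named are those of each list that passed, at most 4 by p, or the 2 with the smallest p where none passed. Of markers, Umod is named by the same rule, as are Cldn16, Tmem52b and Klhl3. Adam10, Adam17, Nrg2, Nrg3, Nrg4 and Trpm6 were named after their values were seen. The myeloid markers Ptprc, Csf1r, Cd68, Lyz2 and C1qb and the magnesium gene Cnnm2 were also named outside the rule.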

Additional observations from a re-analysis of the deposited data

Results flagged for a closer look

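With 4 libraries in a group, a library was marked where its gap to the nearest other library filled most of the group's range. Chance marks about 1 in 20 groups of continuous, normally spread values, and 42 groups were checked. That rate does not apply to the marks on Ereg and Fosl1, which rest on a few reads with ties between libraries. All 7 marks fell on C11, the Control library that leans to long transcripts. C11 was the highest Control library for Egf (1729 CPM), Erbb2 (67.8 CPM) and Erbb3 (167 CPM), and for the pathway genes Etv5 (25.5 CPM), Rhbdl2 (1.60 CPM) and Fosl1 (0.401 CPM). It was the lowest for Ereg, with 0 CPM against 1 read in each of the other Control libraries. The share of the length lean in these values was not tested.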

How the results depend on the processing

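No paired analysis was possible because the mice of the 2 groups share no numbers. Of all genes, 2170 passed (1154 higher, 1016 lower). DESeq2 called 3267 (1764 higher), library totals alone called 2374 higher and 548 lower and put the median of all genes at 0.34 (log2), and without KO16, KO20 and C11 together 9175 passed (4689 higher, 4486 lower). Leaving out 1 library gave 1106 (without C13) to 2697 genes, 531 to 1363 higher and 566 to 1334 lower; the total also moved by over 1.5 times without C10 (1436), C14 (1200) and KO20 (1311). Where no cause is shown, it was not tested.

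Areg kept its call wherever it was fitted. Egf was called with the length trend removed alone (-1.24), with -1.85 to -0.85 on leaving out 1 library. Tgfa lost its call by limma-voom (1.26) and with no filter (1.31), and ran from 1.07 to 1.56 on leaving out 1 library. Hbegf turned to -0.01 by DESeq2, limma-voom, with no filter and without the 3 libraries, and ran from -0.15 to 0.27 on leaving out 1. Btc was -0.07 without the 3 libraries. On leaving out 1 library Egfr ran from -0.10 to 0.23, Erbb2 from -0.47 to 0.43 and Erbb3 from -0.88 to 0.05. Without the 3 libraries these were 0.48, 0.86 and 0.45, and Erbb4 was 0.37. Erbb2 was 0.08 with library totals alone and 0.20 without KO16 and KO20, and Erbb4 -0.09 by limma-voom.

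The runs without KO16 and KO20, and also without C11, were added for the pathway lists after seeing the data. Without KO16 and KO20 (8.17% of all genes higher, 8.4% lower), 1 of 2 tested other ligand genes was higher and 1 lower. Of 11 receptor-level inhibitors 1 was higher and 1 lower, and of 17 ERK transcripts 3 were higher and 0 lower. Counts stayed at 2 higher and 1 lower for 11 release genes, and at 1 higher and 0 lower for 16 cascade genes. Without all 3 (29.5% of all genes higher, 28.2% lower), 1 of 2 other ligand genes was higher and 1 lower. Of 11 release genes 7 were higher and 1 lower, and of 16 cascade genes 4 were higher and 3 lower. Of 11 inhibitors 4 were higher and 2 lower, and of 17 ERK transcripts 7 were higher and 2 lower. With the marker median, Egf was -1.43 relative to distal convoluted tubule markers (groups apart) and -1.32 relative to thick ascending limb markers (groups overlapping).

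By coding length in place of exon length, Egf stayed first by mean but second in KO20, and ranks among the 10 genes in cKO became 2 for Hbegf, 3 for Tgfa, 4 for Btc, 5 for Egfr, 6 for Erbb3 and 7 for Erbb2. In Control they became 2 for Hbegf, 3 for Erbb3, 4 for Btc, 6 for Tgfa, 7 for Erbb2, 8 for Erbb4, 9 for Ereg and 10 for Areg. These ranks are by mean, and that of Erbb3 in Control rests on C11 (41.7 CPM per kilobase, against 21.9 for Egfr). In every other library Egfr lay above Erbb3 by coding length. Depth limits Areg and Ereg, with 2 and 3 reads over the Control libraries.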

Other observations

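Listed genes of magnesium handling did not pass, with 0 of 4 called (Trpm6, Trpm7, Cnnm2 and Slc41a3), against 14.1% of all genes tested. Trpm6, the magnesium channel gene whose product EGF stimulates, had 6.59, 17.4, 13.9 and 8.69 CPM in KO16, KO18, KO19 and KO20, against 12.8, 14.5, 13.6 and 13.3 CPM in C10, C11, C13 and C14 (log2 fold change -0.22, adjusted p = 0.706). Slc41a3, a magnesium transporter gene, differed by 0.50 on the log2 scale (adjusted p = 0.297), and Trpm7, a channel kinase gene, by -0.77 (adjusted p = 0.319). KO16 and KO20, the libraries that lean most to short transcripts, were the lowest for Trpm6, and KO16 was also the lowest for Trpm7. Of the ligand genes with too few reads to be tested, Nrg2 had 26 reads over the cKO and 4 over the Control libraries, and Nrg3 had 0 in all 8.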
